A study of Mus musculus with 6 samples.

Results

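The 36 genes described here encode enzymes and regulators of sterol and fatty acid synthesis. They were taken by symbol from the deposited tables of 21899 genes, where each symbol matched a single identifier. They fall into 18 genes of the sterol branch, 12 of the fatty acid branch, and 6 regulators, counting a sterol carrier among them. RNA came from induced regulatory T cells (iTregs) of Dlst-Treg iKO mice (KO, 3 samples) and of iWT mice (WT, 3 samples), profiled by bulk mRNA sequencing. Dlst codes for dihydrolipoamide succinyltransferase, a core component of the mitochondrial complex that turns 2-oxoglutarate into succinyl-CoA in the TCA cycle. In both groups splenic CD4+ T cells were polarised towards Tregs for 2 days with 4-hydroxytamoxifen, the drug that switches on tamoxifen-inducible Cre recombinase. Cells positive for CD4, the FoxP3-GFP reporter and tdTomato were then sorted. The labels give neither the age of the mice nor the promoter of the Cre, and they do not say that the samples came from separate animals. Each p-value is therefore set by the scatter among these samples, some of which may be technical.

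Sterols and fatty acids share cytosolic acetyl-CoA as their building block. ATP citrate lyase makes it from citrate that leaves the mitochondrial TCA cycle, and acetyl-CoA synthetase makes it from acetate. The sterol branch runs through mevalonate, isoprenoids and squalene to lanosterol and cholesterol, whereas the fatty acid branch runs through malonyl-CoA to palmitate, which is then elongated and desaturated. SREBP2 mainly drives genes of the sterol branch and SREBP1 genes of the fatty acid branch. Both are held in the endoplasmic reticulum by SCAP and the INSIG proteins while sterols are plentiful. Proliferating T cells are known to raise both branches to build membranes.

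Libraries held 33590510 to 49772670 estimated counts, and 12768 genes had enough counts to be tested, all 36 members among them. The targeted gene, Dlst, was at 125, 129 and 129 CPM (a count scaled by library size) in KO replicates 1 to 3, against 161, 149 and 149 CPM in WT replicates 1 to 3. The groups did not overlap, but most of the Dlst count remained, with a log2 fold change of -0.26 (SE 0.05, edgeR adjusted p = 0.0894). These counts are per gene and do not show whether the remaining mRNA was complete. Foxp3 averaged 222 ± 13.2 CPM in KO and 185 ± 26.5 CPM in WT (SD, n = 3 each), and its groups did not overlap (0.26, edgeR adjusted p = 0.305). Cd3e, a defining T cell gene, was at 289 to 307 CPM in KO and 292 to 327 CPM in WT. Markers of T cells and Tregs (6 genes) summed to 2915 to 3293 CPM in KO and 3042 to 3487 CPM in WT, with 1 called, Ikzf2, lower in KO. KO replicate 1 stood apart: 4 Y-linked mRNAs summed to 253 CPM there and to at most 1.25 CPM in the other 5 libraries. That library therefore held RNA of male cells, of which the other 5 held next to none. Its source differed from that of KO replicates 2 and 3, and sex was not balanced between KO and WT. Whether sex bears on any value here was not tested. Markers of neutrophils (8 genes) summed to 73.2 to 303 CPM in KO and 4.78 to 31.98 CPM in WT, and markers of macrophages and monocytes (9 genes) to 93.2 to 356 CPM in KO and 20.6 to 29.6 CPM in WT. Both sums were highest in KO replicate 1, and with 7 genes tested in each list, 1 was called, Mrc1, higher in KO. Markers of B cells summed to 28.2 to 29.8 CPM in KO and 13.97 to 91.4 CPM in WT, with the highest value in WT replicate 1. Markers of CD8 T cells summed to 86.3 to 101 CPM in KO and 43.1 to 77.6 CPM in WT. Adipocyte markers, a check because adipocytes are rich in these enzymes, reached at most 0.167 CPM in any library, and Lep and Cfd were at 0 in all of them. Red cell markers reached at most 1.08 CPM. KO replicates 2 and 3 were more alike than any other pair within a group, with a biological coefficient of variation of 2.97% against 7.18 to 14.8% in the other pairs. Their counts still differed by more than sampling noise, and they were kept as 2 samples.

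Sequence upstream of the genes was compared between the branches, because the branches differ in the transcription factors known to drive them. RefSeq windows of the 250 bases before the start (GRCm38.p6) were listed for 29 of the 36 members. Scd1, Scd2, Fads1, Sqle, Fdps, Fdft1 and Stard4 had none listed, so the comparison leaves them out. The only window listed for Acaca, 84195188 to 84195437 on chromosome 11, lies inside the gene, which starts at 84129672 in GENCODE M21. It may miss the main promoter, and it counts below as a fatty acid gene without any of the motifs. Searched on both strands were the sterol response element TCACNCCAC, the CCAAT box CCAAT, known as a site of NF-Y, and the GC box GGGCGG, known as a site of Sp1. A CCAAT box was found in 14 of 15 sterol genes, 5 of 9 fatty acid genes and 4 of 5 regulators, against 37.5% of all 27025 genes with a window. A GC box was found in 14 of 15 sterol genes, 5 of 9 fatty acid genes and 5 of 5 regulators, against 35.4% of all genes. The stated form of the sterol response element was found in 1 member, Hmgcs1, as TCACCCCAC starting 137 bases before the start, against 1.22% of all genes. A gene with more than 1 window counted as a match if any of them held the motif. The genes with a window include many that were not tested here, whereas all members were tested, so the shares are not matched for expression. These matches describe letters in a window and are not shown to be bound. The 4 windows printed next show the contrast within the set, each 5′ to 3′ on the strand of its gene, with CCAAT boxes of either strand and the sterol response element in capitals. Hmgcs1 (HMG-CoA synthase; chromosome 13, 119690101 to 119690350, plus strand) holds all the motifs, and Mvk (mevalonate kinase; chromosome 5, 114444019 to 114444268, plus strand) holds 5 CCAAT boxes. Fasn (fatty acid synthase; chromosome 11, 120824548 to 120824797, minus strand) has 3 CCAAT boxes, of which the nearest 2 overlap each other. Acly (ATP citrate lyase; chromosome 11, 100528001 to 100528250, minus strand) has GC boxes and no CCAAT box.
Hmgcs1: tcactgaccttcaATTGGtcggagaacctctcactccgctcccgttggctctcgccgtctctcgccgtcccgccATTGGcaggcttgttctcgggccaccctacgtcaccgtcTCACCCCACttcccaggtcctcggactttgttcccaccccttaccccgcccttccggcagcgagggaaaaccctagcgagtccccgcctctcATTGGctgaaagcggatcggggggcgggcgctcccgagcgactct
Mvk: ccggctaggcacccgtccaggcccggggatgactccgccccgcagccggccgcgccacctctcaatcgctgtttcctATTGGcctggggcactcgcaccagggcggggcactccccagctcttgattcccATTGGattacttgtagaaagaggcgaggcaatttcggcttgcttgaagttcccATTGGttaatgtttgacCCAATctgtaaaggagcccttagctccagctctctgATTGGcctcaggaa
Fasn: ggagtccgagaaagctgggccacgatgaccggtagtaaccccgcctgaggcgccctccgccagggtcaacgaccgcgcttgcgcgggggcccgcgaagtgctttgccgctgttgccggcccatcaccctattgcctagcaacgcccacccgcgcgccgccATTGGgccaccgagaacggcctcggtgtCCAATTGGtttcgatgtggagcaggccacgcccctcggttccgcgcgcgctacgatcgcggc
Acly: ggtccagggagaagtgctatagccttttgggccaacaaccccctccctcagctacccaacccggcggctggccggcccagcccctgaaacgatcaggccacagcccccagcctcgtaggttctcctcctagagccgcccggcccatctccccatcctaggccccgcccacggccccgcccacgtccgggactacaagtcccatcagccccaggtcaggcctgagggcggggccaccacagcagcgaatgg

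Across the 36 members 1 gene fell in KO, Scd1, and 0 rose, at an edgeR adjusted p under 0.05 (Benjamini-Hochberg, over all tested genes). Of all tested genes 0.219% were called lower and 0.454% higher in KO, or 0.674% in all. At an unadjusted p under 0.05, 7 members were lower and 1 was higher in KO, against 6.6% and 8.47% of all tested genes. By DESeq2, 3 members were lower (Scd1, Scd2 and Acaca) and 1 was higher (Acss2), against 1.23% and 2.72% of the genes it tested. The members leaned below WT by small amounts: 30 of 36 log2 fold changes were below 0, against 50.9% of all tested genes. The median log2 fold change was -0.10 over the members and -0.00 over all tested genes. Every KO sample lay below every WT sample for 12 members, against 10.9% of all tested genes, and above for 2 members, against 11.9%. These counts describe the set and were given no test of their own.

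**Figure D1:**
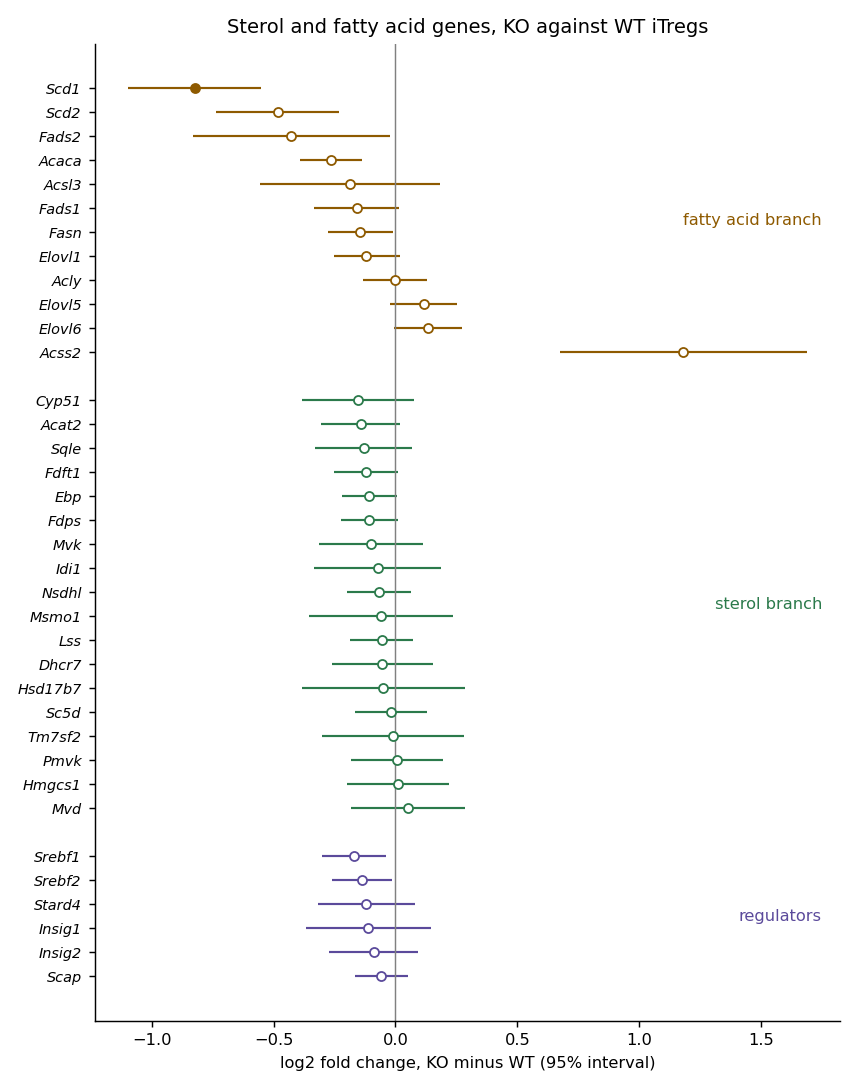
Log2 fold change of each member, KO minus WT (horizontal axis), with its 95% interval from the edgeR fit; rows are genes, grouped and coloured by branch, and filled points have an adjusted p under 0.05. Scd1 at -0.82 carries the filled point, Acss2 stands alone on the right at 1.18, and the sterol genes lie between -0.15 and 0.05.

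Fold changes were spread more widely among fatty acid genes than among sterol genes. Log2 fold changes ran from -0.82 to 1.18 in the fatty acid branch, with a median of -0.15, and from -0.15 to 0.05 in the sterol branch, with a median of -0.06. The median size of change, without its sign, was 0.06 for sterol genes, 0.17 for fatty acid genes and 0.10 for all tested genes. The groups did not overlap for 4 of 18 sterol genes, all lower in KO, and for 7 of 12 fatty acid genes, 5 lower and 2 higher in KO, against 22.8% of all tested genes. Without KO replicate 1 the medians were -0.099 for fatty acid genes and -0.068 for sterol genes, so the gap between them was smaller. The difference between the branches was not tested, since genes within a branch are not replicates.

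In the fatty acid branch the largest fall was that of Scd1, stearoyl-CoA desaturase 1, the enzyme that puts the double bond into stearate and palmitate. Scd1 mRNA was at 5.17, 6.69 and 6.05 CPM in KO replicates 1 to 3, against 10.3, 10.5 and 10.8 CPM in WT replicates 1 to 3. All KO samples were lower than all WT samples, and the WT samples lay close together. The Scd1 log2 fold change was -0.82 (SE 0.12, 95% interval -1.10 to -0.55), a level of 0.565 times WT, with an edgeR adjusted p of 0.0301. Scd1 did not pass without KO replicate 2 (-0.91, edgeR adjusted p = 0.0604), KO replicate 3 (-0.83, 0.144), WT replicate 2 (-0.83, 0.121) or WT replicate 3 (-0.81, 0.12), nor with KO replicates 2 and 3 summed (-0.87, 0.0854). On the deposited TPM scale, which corrects for gene length, Scd1 was at 1.87, 2.41 and 2.93 TPM in KO, against 3.75, 5.28 and 4.40 TPM in WT. There too the groups did not overlap, but limma on log2(TPM + 1) did not call it (-0.69, adjusted p = 0.141).

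Scd2, the paralog that neighbours Scd1 on chromosome 19 and was the more abundant form in all 6 libraries, was also lower in every KO sample. Scd2 was at 138, 146 and 146 CPM in KO, against 234, 170 and 195 CPM in WT. The KO samples were close to each other and below all WT samples, among which WT replicate 1 was highest. The difference of -0.48 on the log2 scale (SE 0.11, 95% interval -0.74 to -0.23) missed the threshold at an edgeR adjusted p of 0.111 but passed by DESeq2 (-0.49, adjusted p = 0.00093). Without WT replicate 1 it was -0.36 (edgeR adjusted p = 0.0989). Without KO replicate 1 and WT replicate 1 together it was -0.33 and passed (edgeR adjusted p = 0.0394). Both genes had counts with decimals, so reads may have been divided between near-identical stretches. Their summed level does not depend on division between Scd1 and Scd2. It was 143, 152 and 152 CPM in KO, against 245, 181 and 206 CPM in WT, also without overlap. Scd3 and Scd4 on the same chromosome had decimal counts too, and reached at most 0.232 and 0.861 CPM in any library. Per length, Scd1 made up 4.65 ± 0.907% of the TPM of the pair in KO and 6.23 ± 2.04% in WT (SD, n = 3 each), and those shares overlapped.

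The other desaturases among the 36 genes, which make polyunsaturated fatty acids, lie side by side elsewhere on chromosome 19. Fads2, the delta-6 desaturase, was at 1.88, 2.00 and 2.11 CPM in KO, against 2.83, 2.34 and 2.88 CPM in WT. The groups did not overlap. With 67 to 134 counts per library, the difference of -0.43 on the log2 scale (SE 0.17) missed the threshold (edgeR adjusted p = 0.306). Fads1, the delta-5 desaturase, was at 32.7, 34.5 and 34.9 CPM in KO, against 41.5, 34.6 and 38.0 CPM in WT. KO replicate 3 lay above WT replicate 2, so the Fads1 groups overlapped (log2 fold change -0.16, edgeR adjusted p = 0.37).

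The enzymes that build the chain showed smaller differences. Acaca, acetyl-CoA carboxylase 1, which makes malonyl-CoA and commits acetyl-CoA to fatty acids, was at 109.5, 108.5 and 116 CPM in KO, against 139, 134 and 128 CPM in WT. The groups did not overlap, and its log2 fold change was -0.26 (SE 0.06, 95% interval -0.39 to -0.14, edgeR adjusted p = 0.0938). By DESeq2 Acaca passed (-0.27, adjusted p = 0.00348). Fasn, which assembles palmitate and had the highest CPM of the members, was at 464, 478 and 506 CPM in KO, against 525, 562 and 514 CPM in WT. These too did not overlap, although the closest KO and WT samples lay 1.55% apart, and the log2 fold change was -0.15 (SE 0.06, edgeR adjusted p = 0.299).

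The elongases had no common direction, and none passed. Elovl6, which lengthens palmitate to stearate, was at 22.0, 21.4 and 22.6 CPM in KO, against 19.9, 19.6 and 20.7 CPM in WT. Every KO sample was higher than every WT sample, by a small margin (log2 fold change 0.13, SE 0.06, edgeR adjusted p = 0.354). On the TPM scale its groups overlapped. Elovl5, which acts on polyunsaturated chains, averaged 101 ± 1.84 CPM in KO and 93.4 ± 6.08 CPM in WT (a log2 difference of 0.12, edgeR adjusted p = 0.41), and its groups overlapped. Elovl1, which makes very long saturated chains and had the highest TPM of the 3 elongases, averaged 90.4 ± 4.87 CPM in KO and 98.1 ± 3.54 CPM in WT, with overlap (-0.12, edgeR adjusted p = 0.389). The Elovl1 gene overlaps Cdc20 on the other strand, and since the strand setting of the counting is not given, reads of the overlap cannot be told apart. Acsl3, which activates long-chain fatty acids at the endoplasmic reticulum and lipid droplets, averaged 30.1 ± 5.85 CPM in KO and 34.1 ± 4.54 CPM in WT (-0.19, edgeR adjusted p = 0.618). Its sign turned on the TPM scale.

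Of the enzymes that supply cytosolic acetyl-CoA, Acss2 was higher in every KO sample and Acly was not. Acly, which draws on citrate, was at 313, 338 and 339 CPM in KO, against 346, 323 and 321 CPM in WT. Acly averaged 330.0 ± 14.9 CPM in KO and 330.3 ± 13.7 CPM in WT (SD, n = 3 each), and its groups overlapped, with a log2 fold change of -0.00 (95% interval -0.13 to 0.13, edgeR adjusted p = 0.995). Acss2, the cytosolic and nuclear acetyl-CoA synthetase that draws on acetate, was at 11.3, 6.45 and 7.49 CPM in KO, against 4.16, 3.67 and 3.34 CPM in WT. All KO samples were above all WT samples, with KO replicate 1 highest. Its log2 fold change was the largest of the members in either direction, 1.18 (SE 0.22, 95% interval 0.68 to 1.69), a level of 2.27 times WT. It did not pass (edgeR adjusted p = 0.0703), but passed by DESeq2 (adjusted p = 6.06e-05) and in the edgeR fit without a filter on low counts (0.0363). Without KO replicate 1 it was 0.91 (edgeR adjusted p = 0.0703), and without KO replicate 1 and WT replicate 1 together it was 1.00 and passed (0.00912). Per length, Acss2 made up 5.21, 2.82 and 3.11% of the summed Acss2 and Acly TPM in KO, against 1.84, 1.72 and 1.46% in WT. Acly therefore remained the far more abundant of the pair in all 6 libraries.

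**Figure D2:**
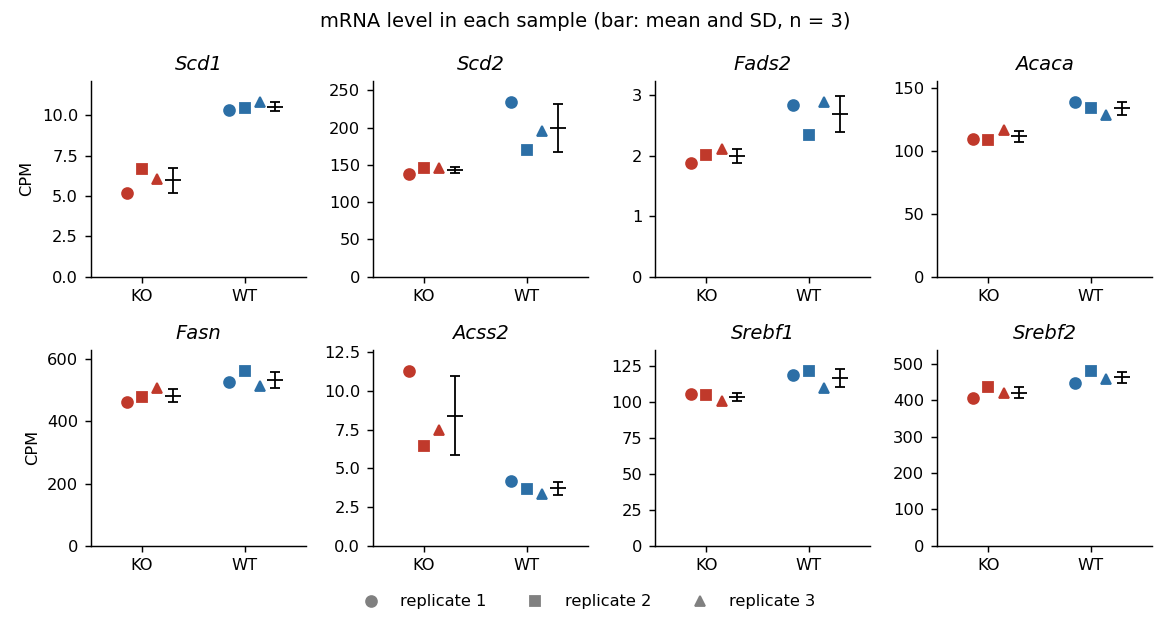
CPM (vertical axes, from 0) of 8 members in each of the 3 KO and 3 WT samples, with a marker shape for each replicate number and the mean and SD beside them. All 8 genes shown are among the members whose groups do not overlap. The groups overlap for 22 of the 36 members, and 22.8% of all tested genes do not overlap. Scd1 averages 5.97 CPM in KO and 10.6 CPM in WT, and Acss2 8.41 CPM in KO and 3.72 CPM in WT.

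Acss2 and Scd1 were set beside the myeloid markers across the libraries. Macrophage and monocyte markers summed to 356, 93.2 and 104 CPM in KO replicates 1 to 3, against 29.6, 22.0 and 20.6 CPM in WT replicates 1 to 3. Lyz2 was the largest part of each sum, at 316, 74.7 and 84.4 CPM in KO, against 18.4, 10.9 and 10.35 CPM in WT. Of the listed markers, Lyz2 and Fcgr3 took the order of the sum over the libraries and the rest did not. Acss2 took the 6 libraries in the order of the sum, which held for 101 tested genes (0.791%). That order needs every KO sample above every WT sample, which held for 1519 tested genes. Scd1 took the reverse order, which held for 34 tested genes (0.266%), out of 1392 with every KO sample below every WT sample. The Scd1 order within WT rests on close values, 10.3, 10.5 and 10.8 CPM. No other member took either order. Neither gene followed the neutrophil marker sum in full, which was 75.4 CPM in KO replicate 2 and 73.2 CPM in KO replicate 3. In bulk RNA a change in the share of a cell type cannot be told apart from a change in RNA per cell. The part of myeloid RNA in the differences of Acss2 and Scd1 was not tested. In KO replicates 2 and 3 the marker sums, 93.2 and 104 CPM, were the lowest of KO but still above all WT libraries (20.6 to 29.6 CPM). Acss2 was at 6.45 and 7.49 CPM there, against at most 4.16 CPM in WT. Scd1 was at 6.69 and 6.05 CPM there, against at least 10.3 CPM in WT.

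**Figure D3:**
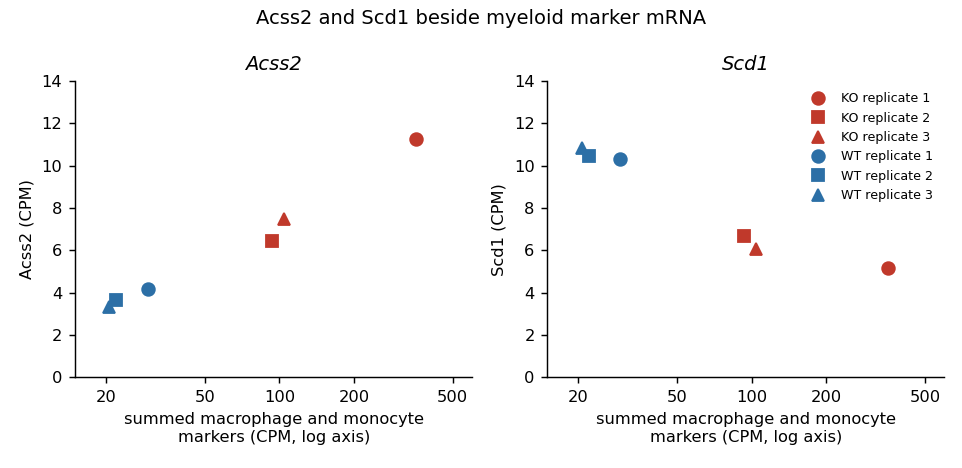
Acss2 (left panel) and Scd1 (right panel) in CPM against the summed CPM of 9 macrophage and monocyte markers (log axis), 1 point per sample, KO in red and WT in blue. KO replicate 1 lies at 356 CPM of marker sum with the highest Acss2 (11.3 CPM) and the lowest Scd1 (5.17 CPM).

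Position and overlap of these genes were also noted. Acss2 lies at 155517948 to 155585724 on chromosome 2 (GENCODE M21, GRCm38), 0.268 Mb from Dynlrb1, a dynein light chain gene that was called higher in KO (0.44 on the log2 scale, edgeR adjusted p = 0.0216). Acss2 overlaps Gss and Ggt7 on the other strand. Gss averaged 19.4 ± 1.72 CPM in KO and 19.5 ± 1.09 CPM in WT, and Ggt7 5.23 ± 0.61 CPM in KO and 4.04 ± 0.0315 CPM in WT (log2 fold change 0.37, edgeR adjusted p = 0.257). The members Acaca, Acsl3, Cyp51, Elovl1, Fdft1, Srebf1 and Tm7sf2 also overlap another listed gene, so their counts may hold reads of both. Scd1 lies at 44394455 to 44407879 on chromosome 19, and its nearest called gene, Anxa1, is 24.0 Mb away. Acaca lies 0.551 Mb from Ccl9, a chemokine gene that was called higher in KO (1.42), and Fdft1 0.427 Mb from Xkr6, which was called lower (-0.80). Whether place on the chromosome bears on any of these values was not tested.

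In the sterol branch none of the 18 genes passed, by edgeR or by DESeq2. Early mevalonate steps showed no common direction. Acat2, cytosolic acetoacetyl-CoA thiolase, was at 32.1 and 33.9 CPM in KO replicates 1 and 2 with replicate 3 between them, against 33.1, 37.5 and 38.5 CPM in WT, and the groups overlapped (log2 fold change -0.14, SE 0.07, edgeR adjusted p = 0.389). Hmgcs1, HMG-CoA synthase, averaged 127 ± 12.6 CPM in KO and 126 ± 10.7 CPM in WT (0.01, 95% interval -0.20 to 0.22). The kinases Mvk and Pmvk stood at -0.10 and 0.01 and the decarboxylase Mvd at 0.05, with edgeR adjusted p of 0.65, 0.985 and 0.842. The signs of Hmgcs1, Pmvk and Mvd turned under some settings.

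The isoprenoid and squalene steps all had log2 fold changes slightly below 0, except that Idi1 turned to 0.04 without KO replicate 1. Fdps, farnesyl diphosphate synthase, was at 69.3, 71.4 and 72.7 CPM in KO, against 77.6, 78.4 and 73.9 CPM in WT. Fdft1, squalene synthase, was at 69.7, 76.3 and 72.6 CPM in KO, against 77.0, 82.7 and 77.6 CPM in WT. Neither gene overlapped between the groups, but the closest KO and WT samples were 1.64% apart for Fdps and 0.983% apart for Fdft1. Their log2 fold changes were -0.11 (SE 0.05, edgeR adjusted p = 0.366) and -0.12 (SE 0.06, 0.369). Sqle, squalene epoxidase, was at 74.0, 88.0 and 84.5 CPM in KO, against 81.2, 94.7 and 93.8 CPM in WT, with overlap (-0.13, edgeR adjusted p = 0.513). Idi1, isopentenyl diphosphate isomerase, had a wide spread, at 132, 178 and 163 CPM in KO and 151, 178 and 169 CPM in WT (-0.07, 0.796). Lss, lanosterol synthase, stood at -0.06 (0.674).

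Among the steps after lanosterol, Ebp, the sterol isomerase on the X chromosome, was at 48.3, 47.1 and 45.6 CPM in KO, against 51.1, 49.5 and 51.3 CPM in WT. The groups did not overlap, and its log2 fold change was -0.11 (SE 0.05, edgeR adjusted p = 0.358). Nsdhl, also X-linked, did not overlap either, at 23.9, 24.5 and 23.2 CPM in KO, against 25.2, 25.3 and 24.5 CPM in WT, with the closest samples 0.144% apart (-0.07, edgeR adjusted p = 0.61). Cyp51, lanosterol demethylase, had the highest CPM of the branch, at 222, 277 and 258 CPM in KO, against 251, 306 and 286 CPM in WT. Its groups overlapped, and replicate 1 was the lowest of each (-0.15, SE 0.10, edgeR adjusted p = 0.507). Dhcr7, Msmo1, Hsd17b7, Sc5d and Tm7sf2, which encode reductases, oxidases and a desaturase of these steps, ranged from -0.06 to -0.01, with edgeR adjusted p from 0.809 to 0.982 and signs that turned under some settings. The 95% intervals of Sc5d, -0.17 to 0.13, and of Hsd17b7, -0.39 to 0.28, show how unequal the precision was.

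The regulators all had log2 fold changes slightly below 0, and none of the 6 passed. Srebf1, which encodes SREBP1, was at 106, 105 and 100.5 CPM in KO, against 119, 121.5 and 109.7 CPM in WT. Srebf2, which encodes SREBP2, was at 405, 436 and 420 CPM in KO, against 448, 480 and 460 CPM in WT. In both genes every KO sample was below every WT sample. Their log2 fold changes were -0.17 (SE 0.06, edgeR adjusted p = 0.23) and -0.14 (SE 0.05, 0.286). The counts do not separate the SREBP1a and SREBP1c forms of Srebf1, which also overlaps Rai1 on the other strand. Scap, the escort of both factors, was at 159, 163 and 159 CPM in KO, against 171, 164 and 166 CPM in WT, a difference without overlap but of -0.06 (SE 0.05, edgeR adjusted p = 0.6). Insig1 and Insig2, which retain SCAP when sterols are plentiful, stood at -0.11 and -0.09 (edgeR adjusted p = 0.673 and 0.629). Stard4, a cytosolic sterol carrier, was at 99.1, 124 and 119 CPM in KO, against 119.8, 129 and 122.7 CPM in WT, with overlap (-0.12, edgeR adjusted p = 0.551).

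The mean log2 CPM of the 18 sterol genes, relative to the mean of the 6 samples, was -0.06, 0.01 and -0.04 in KO, against -0.04, 0.09 and 0.04 in WT. KO replicate 2 thus lay above WT replicate 1, and the groups overlapped. The group means, -0.03 ± 0.04 in KO and 0.03 ± 0.07 in WT (SD, n = 3 each), differed by about as much as the libraries of 1 genotype did. For 9 of the 18 genes replicate 1 was the lowest library of KO and also of WT, against 18.5% of all tested genes, among them Hmgcs1, Idi1, Cyp51 and Sqle. The same held for 4 of 6 regulators and 2 of 12 fatty acid genes. In the fatty acid branch the values were -0.09, -0.04 and -0.02 in KO, against 0.08, 0.02 and 0.05 in WT, without overlap. In the regulators they were -0.14, 0.01 and -0.04 in KO, against -0.00, 0.12 and 0.05 in WT, with overlap. KO replicate 1 held the lowest value of 20 of the 36 members, against 26.6% of all tested genes, and WT replicate 2 the highest of 17, against 17.9%. Whether the cell types or the sex that differ between these libraries take part in this was not tested.

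**Figure D4:**
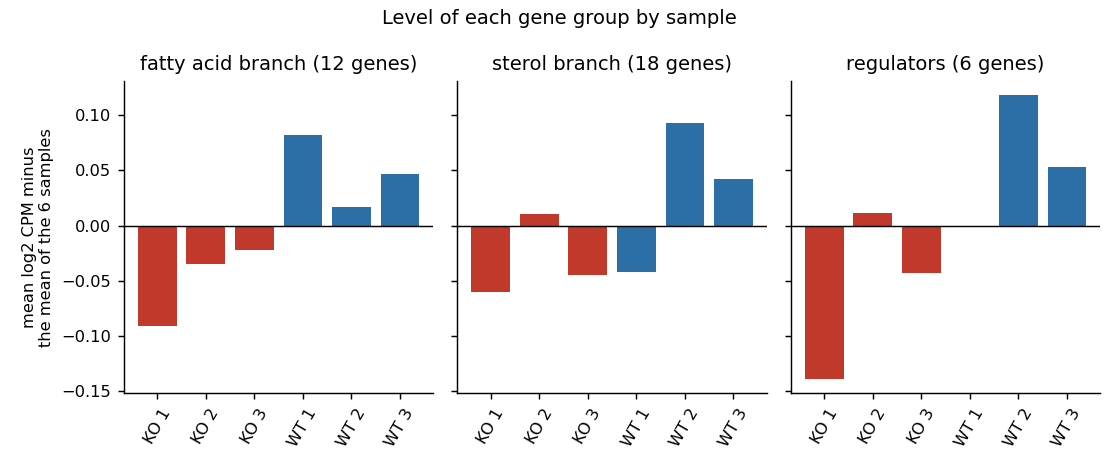
Mean over the genes of each group of log2 CPM minus the mean of the 6 samples (vertical axis, log2 units), with a bar for each sample, KO in red and WT in blue. Fatty acid genes lie below 0 in all 3 KO samples and above 0 in all 3 WT samples, whereas in the sterol branch KO replicate 2 is at 0.01 and WT replicate 1 at -0.04.

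Summed per length, the sterol branch held 825, 914 and 876 TPM in KO, against 880, 960 and 952 TPM in WT. The fatty acid branch held 538, 583 and 573 TPM in KO, against 625, 599 and 599 TPM in WT. The fatty acid sums did not overlap between the groups and the sterol sums did. Mean TPM of single sterol genes ran from 7.64 for Tm7sf2 in WT to 130 for Idi1 in WT. In the fatty acid branch it ran from 1.37 for Fads2 in KO to 137 for Acly in WT.

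Genes around the 2 branches were taken from 4 further lists, of which 83 of 95 genes were tested. Of these 83, 1 rose, Fntb, and 0 fell, against 0.454% called higher and 0.219% called lower of all tested genes. Among 23 other sterol and isoprenoid genes the median log2 fold change was -0.06, with 1 higher and 22 not past the threshold. Fntb, the beta subunit of protein farnesyltransferase, which attaches a farnesyl group made by the sterol branch, was at 37.8, 36.6 and 37.8 CPM in KO, against 28.1, 23.1 and 22.6 CPM in WT. The groups were well apart, with a log2 fold change of 0.61 (SE 0.09, edgeR adjusted p = 0.0307). Fntb lies on chromosome 12, 8.19 Mb from Dlst, overlaps Rab15, Gpx2 and Churc1, and had decimal counts. It did not pass without KO replicate 1, 2 or 3 (edgeR adjusted p = 0.0724, 0.0805 and 0.144) or without WT replicate 2 or 3 (0.128 and 0.117), at 0.55 to 0.62 on the log2 scale in these fits, nor by limma on log2(TPM + 1) (0.102). Erg28, an adaptor of sterol demethylation 0.68 Mb from Dlst, averaged 58.7 ± 2.52 CPM in KO and 67.6 ± 3.9 CPM in WT (-0.20, edgeR adjusted p = 0.194). Whether nearness to the edited locus bears on either was not tested.

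Of 20 tested genes of sterol uptake, efflux, esterification and the LXR response none passed, with a median of -0.05. Soat1, which esterifies cholesterol for storage, was at 74.0, 76.2 and 74.2 CPM in KO, against 87.8, 92.2 and 90.6 CPM in WT. Osbpl3, an oxysterol-binding protein, was at 35.9, 32.4 and 32.97 CPM in KO, against 43.4, 45.8 and 42.0 CPM in WT. Both were lower in KO without overlap and close to the threshold, at -0.27 (SE 0.05, edgeR adjusted p = 0.0596) and -0.37 (SE 0.06, 0.0561). Of 25 tested genes of fatty acid synthesis, elongation and activation outside the members none passed, with a median of -0.04. Cyb5a, the cytochrome b5 that passes electrons to desaturases, averaged 95.6 ± 7.32 CPM in KO and 76.6 ± 5.51 CPM in WT (0.32, SE 0.08, edgeR adjusted p = 0.131). Acsl1, an acyl-CoA synthetase that myeloid cells also express, was highest in KO replicate 1, at 23.3, 15.6 and 16.5 CPM in KO, against 13.1, 11.6 and 13.4 CPM in WT (0.54, 0.183). Of 15 tested genes of triglycerides and lipid droplets none passed, with a median of -0.04. Plin2, a coat protein of lipid droplets, was at 31.7, 32.2 and 30.6 CPM in KO, against 15.4, 28.0 and 21.4 CPM in WT (0.54, SE 0.19, edgeR adjusted p = 0.264), and Plin3 stood at -0.16 (0.353).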

How the data were processed

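The 6 libraries were analysed, 3 KO and 3 WT, grouped by the genotype in the labels. RNA was extracted with a column kit and libraries were made with a SMARTER mRNA kit, per the labels' protocols. The submitters' processing notes name FastQC and HISAT2 without versions, while for the counting program, strand setting, genome build and annotation the sources used here give nothing. The authors deposited, per the file headers, estimated counts per gene and TPM, which scale counts by length and library total. From 23.5 to 25.2% of genes had decimal counts.

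Counts were rounded, filtered by filterByExpr (12768 of 21899 genes kept), scaled by TMM (factors 0.988 to 1.01) and tested, KO against WT, in edgeR 4.0.16 (two-sided quasi-likelihood F test, robust dispersions). Benjamini-Hochberg adjustment covered all tested genes, at a threshold of 0.05. Fold changes are KO minus WT on the log2 scale with model standard errors and 95% intervals. Alternatives were DESeq2 1.42.0, RLE factors, no filter, a stricter filter (mean log2 CPM of at least 1), limma 3.58.1 on log2(TPM + 1) or log2(TPM + 0.1) over genes with a mean TPM of at least 1, a replicate block, and libraries left out or summed. Scripts ran in R 4.3.3 and in Python 3.11.15 with pandas 2.3.3 and with matplotlib 3.10.9.

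The members and lists were chosen with earlier results of these data known. Named were all members, with each sample's values for the 6 genes of smallest p in each branch, and 3 regulators. Sample values of Acly, Fads1, Elovl6, Idi1, Nsdhl and Scap are shown as well, chosen after their values were seen. Also named were Dlst, Foxp3 and the list genes past the threshold or, where none was, the 2 of smallest p. Cd3e, Ikzf2, Mrc1, Erg28, Dynlrb1, Gss, Ggt7, Anxa1, Ccl9 and Xkr6 were likewise chosen after their values were seen. Positions come from GENCODE M21 (GRCm38), which need not be the authors' annotation, and upstream sequences from RefSeq (GRCm38.p6).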

Additional observations from a re-analysis of the deposited data

How the results depend on the processing

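Scd1 kept its direction under all 15 alternatives, from -0.91 to -0.69, and passed in 8 of them. Acss2 stayed above 0 (0.87 to 1.34) and passed in 4, Acaca below 0 (-0.29 to -0.22) and passed in 1, and Scd2 below 0 (-0.59 to -0.33) and passed in 2. No other member passed under any alternative. Fntb stayed above 0 (0.52 to 0.71) and passed in 7. Counts of calls, given as higher and lower in KO, were 58 and 28 over all genes, 0 and 1 over the members and 1 and 0 over the other lists. With DESeq2 they were 366 and 165, 1 and 3, and 3 and 2. Without the filter on low counts they were 92 and 41, 1 and 1, and 1 and 1. With limma on log2(TPM + 1) they were 30 and 19, 0 and 0, and 0 and 1, and on log2(TPM + 0.1) 38 and 20, 0 and 0, and 0 and 1. Without KO replicate 1 and WT replicate 1 together they were 311 and 227, 1 and 2, and 2 and 2. With KO replicates 2 and 3 summed they were 6 and 2, 0 and 0, and 0 and 0. Leaving out single libraries gave 3 to 56 higher and 1 to 40 lower over all genes, 0 higher and 0 to 1 lower over the members, and 0 to 1 higher and 0 to 1 lower over the other lists. The fatty acid median ran from -0.179 to -0.099 over these fits, smallest in size without KO replicate 1 (-0.099) and WT replicate 2 (-0.105), and was -0.111 without KO replicate 1 and WT replicate 1 together, the regulators' median ran from -0.172 to -0.047, lowest in size without KO replicate 1, and the sterol median from -0.093 to -0.042. The causes were not tested. With the replicate block the counts were 134 and 43, 1 and 1 (Acss2 at 1.14, edgeR adjusted p = 0.0399), and 2 and 0. Deviations of same-numbered samples from their group means correlated at 0.184, 0.078 and 0.0841, over 0.1 in 1 of 3 pairs. KO replicate 1 correlated with WT replicate 1 at 0.184, and with WT replicates 2 and 3 at -0.143 and -0.106. KO replicate 3 correlated better with WT replicate 2 (0.112) than with WT replicate 3. The labels state no pairing or batch, and these values do not settle whether same-numbered samples share one. Genes with few counts, such as Fads2 at 67 to 134 and Scd1 at 224 to 503 counts per library, carry wider errors than Fasn at 16008 to 26371.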
